A study of Mus musculus with 21 samples.

Results

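The 8 motor neuron genes Chodl, Mmp9, Prss12, Dkk3, Isl1, Tbx20, Esrrb and Esrrg were followed through the ventral pons of mice after the facial nerve was cut. They were taken by symbol from a table of 45664 gene rows, as markers of facial or fast motor neurons and as motor neuron genes described as lowered by the lesion. All 8 were among the 22294 genes with enough counts to test. The choice of members used the lesion libraries and the contralateral libraries of days 7, 14 and 30, so the lesion values of the members are descriptions and carry no test. The description "lowered by the lesion" held in part only: the lesion and contralateral libraries overlapped on all 3 days for Tbx20 and Esrrb.

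Messenger RNA was sequenced in 21 libraries, 3 in each of 7 groups, from C57BL/6 mice of the CX3CR1GFP/wt line, in which green fluorescent protein replaces 1 copy of a microglial receptor gene. All groups carried this allele. The unoperated group (day 0) was the left pons of mice aged 8 weeks, and the operated mice had the right facial nerve cut at the stylomastoid foramen at 8 weeks. Their right (lesion) and left (contralateral) pons was taken at day 7 (9 weeks of age), day 14 (10 weeks) and day 30 (12 weeks). The tissue block held the facial nucleus with parts of neighbouring reticular and trigeminal nuclei, so it held many other neurons and glia. Lesion and side cannot be told apart, because only right-sided tissue was lesioned and only left-sided tissue served as its control. Day cannot be told apart from age or, among days 7, 14 and 30, from the lane number in the column names. Day 0 and day 7 libraries carry the same lane number and share 2 index sequences, so they were not read in the same lane of the same run. For day 30 the count table names its columns with the side letters exchanged. The sample descriptions say which column is which side, and the direction of all day 30 differences depends on them. The labels do not say that the 3 libraries of a group came from separate mice, so the p-values measure the spread between libraries.

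Facial motor neurons send their axons through the facial nerve to the muscles of the face and are cholinergic. The transcription factors Isl1 and Tbx20 help to specify them in the embryo. Adult motor neurons differ by the muscle fibres they supply. Chodl, a membrane lectin, and Mmp9, a secreted matrix metalloproteinase, mark fast motor neurons, and Esrrb and Esrrg, orphan nuclear receptors of the estrogen-related family, are known from slow and gamma motor neurons. Prss12 (neurotrypsin) is a secreted serine protease that cleaves agrin at synapses, and Dkk3 is a secreted glycoprotein of the Dickkopf family. After axotomy motor neurons are known to lower their transmitter genes and to raise genes of axon growth.

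In the mouse genome (GRCm38) Chodl lies on chr16:78930948-78951733 and Prss12 on chr3:123446913-123506597, both on the plus strand. Isl1 lies on chr13:116298281-116309689 (minus strand), Mmp9 on chr2:164940780-164955850 (plus strand) and Dkk3 on chr7:112116017-112159057 (minus strand). Tbx20 lies on chr9:24718138-24774303 (minus strand), Esrrb on chr12:86361117-86521628 (plus strand) and Esrrg on chr1:187608791-188214885 (plus strand). Exons of Prss12 overlap the predicted gene Gm35065 on the opposite strand, and whether counting used strand is not given in the sources used here, so some of its reads may belong to that gene. RefSeq promoter windows of 300 bases (GRCm38.p6, 250 before and 50 after a start site) matched 6 of the 8 members with 10 windows, 4 of them for Esrrg and 2 for Esrrb. The 250 bases before the start are shown for Chodl and Prss12, the members with the largest lesion differences, and for the transcription factor Isl1. Capitals in the Chodl sequence mark TATAA, the core of the element that recruits the TATA-binding protein, which begins 27 bases before the start.
Chodl, chr16:78930698-78930947, plus strand: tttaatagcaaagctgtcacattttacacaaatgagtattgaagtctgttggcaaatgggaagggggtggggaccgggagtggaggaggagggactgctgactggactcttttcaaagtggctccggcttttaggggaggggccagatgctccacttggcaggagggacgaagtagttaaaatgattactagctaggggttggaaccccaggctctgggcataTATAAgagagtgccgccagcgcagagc
Prss12, chr3:123446663-123446912, plus strand: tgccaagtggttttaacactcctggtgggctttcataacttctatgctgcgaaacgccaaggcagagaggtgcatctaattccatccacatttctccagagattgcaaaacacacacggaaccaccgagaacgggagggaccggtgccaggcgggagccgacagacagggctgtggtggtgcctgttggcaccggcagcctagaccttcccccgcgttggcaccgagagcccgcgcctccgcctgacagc
Isl1, chr13:116309689-116309938, minus strand: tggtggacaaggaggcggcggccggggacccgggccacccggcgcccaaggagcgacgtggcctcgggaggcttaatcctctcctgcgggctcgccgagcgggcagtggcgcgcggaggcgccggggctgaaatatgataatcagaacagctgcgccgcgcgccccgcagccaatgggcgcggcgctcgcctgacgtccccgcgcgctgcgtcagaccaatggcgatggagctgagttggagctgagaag
TATAA was searched on the gene strand from 40 to 20 bases before the start, a search added after the sequences had been seen, and 3.52% of 32851 mouse promoters hold it there. A further 3 motifs were searched on both strands of the whole window. AAGGTCA, the element read by estrogen-related receptors, was in 0 of the 10 member windows and in 4.72% of all promoters. CTAATG, a site of LIM homeodomain factors such as Isl1, was in 0 of 10 and in 7.36%. AGGTGT, the core read by T-box factors such as Tbx20, was in 1 of 10 and in 13.7%. That match lies in an Esrrg window, 108 bases before the start, and is shown in capitals with its flanks.
Esrrg, chr1:187608886-187608915, plus strand: gtcttttccccaAGGTGTgtgggtgggggt
These matches are letters in a window and were not set against any measure of binding.

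In the unoperated pons the 8 genes spanned a wide range of levels. Levels are given as CPM, counts scaled to the total of the library, and only this comparison between genes is per kilobase of exon. Dkk3 was highest at 33.8 ± 3.58 CPM per kilobase (SD, n = 3). Esrrg followed at 11.9 ± 0.867 and Chodl at 5.37 ± 0.526. Prss12 stood at 4.04 ± 0.560, Esrrb at 2.78 ± 0.413 and Mmp9 at 1.88 ± 0.282. Isl1 at 0.819 ± 0.321 and Tbx20 at 0.374 ± 0.153 were lowest, and these were the only neighbours in the order whose library ranges overlapped. Day 0 replicate 2 had the lowest level of its group for 8 of the 8 members.

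**Figure D1:**
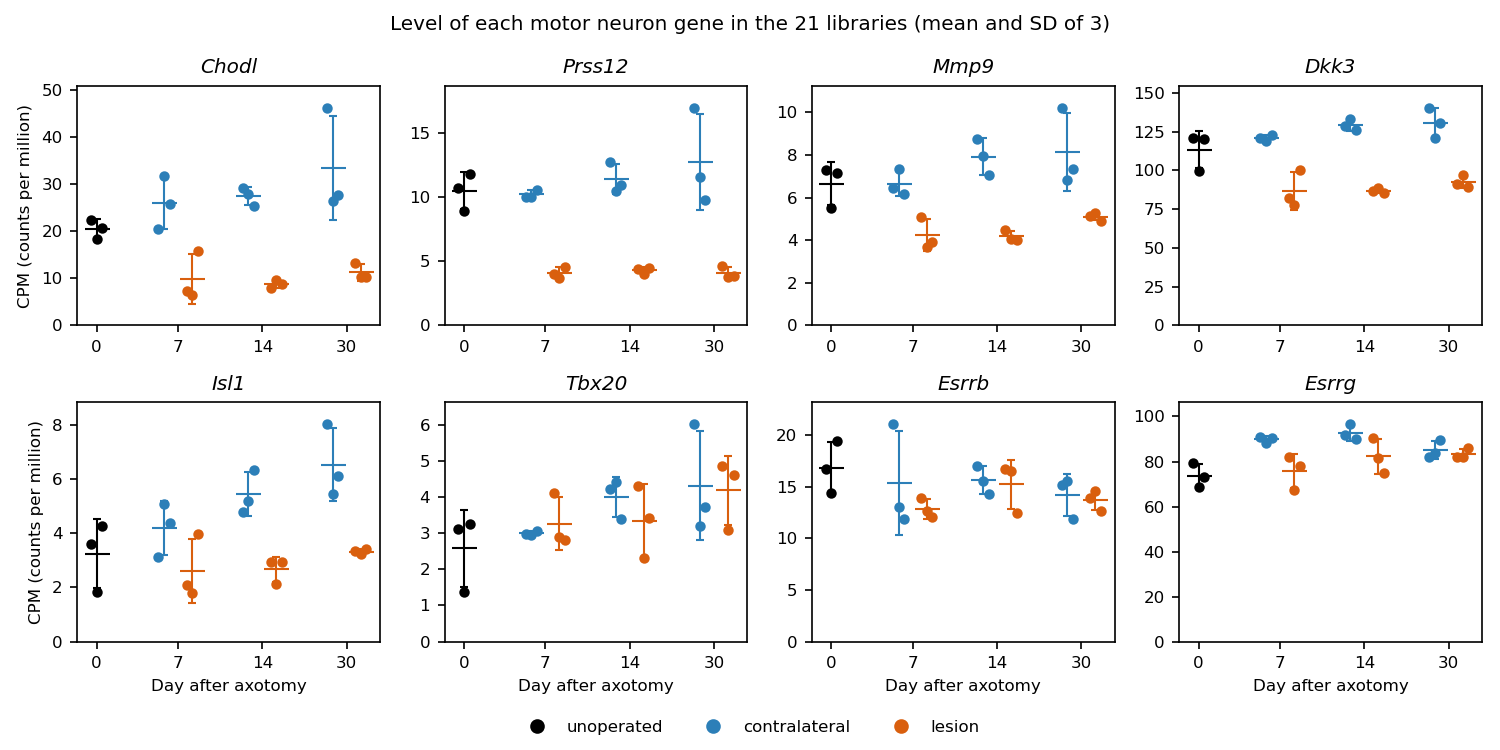
Level of each of the 8 genes (vertical axis, CPM from 0) in the 21 libraries by day after axotomy (horizontal axis), with points for libraries and bars for the mean and SD of 3. Orange lesion points lie below all blue contralateral points of the same day for Chodl, Prss12, Mmp9 and Dkk3 on every day, and overlap them for Tbx20 and Esrrb.

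The markers with the largest lesion differences were Chodl and Prss12, both lower on the lesion side on every day. In bulk tissue fewer motor neurons and less RNA per neuron cannot be told apart, for these genes or any below. Chodl stood at 22.4, 18.4 and 20.8 CPM in the day 0 libraries, in replicate order as in all lists of 3 below. Its contralateral libraries held 20.5, 31.8 and 25.7 CPM at day 7, 29.2, 27.9 and 25.3 at day 14, and 46.2, 26.3 and 27.8 at day 30. Its lesion libraries held 7.21, 6.42 and 15.9 CPM at day 7, 8.00, 9.60 and 8.88 at day 14, and 13.3, 10.2 and 10.3 at day 30. Every lesion library thus lay below every day 0 and contralateral library. Lesion tissue held 38.5%, 32.3% and 33.8% of the contralateral level at days 7, 14 and 30 in the fit. On the log2 scale the differences were -1.38 ± 0.30, -1.63 ± 0.30 and -1.56 ± 0.29 (SE). Day 7 lesion replicate 3 was the highest lesion library for Chodl, and without it the day 7 difference was -1.94. The same library held a summed 4633 CPM of 8 choroid plexus markers, against 58.4 and 71.9 CPM in replicates 1 and 2. The part of that tissue in the Chodl value was not tested.

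Prss12 varied less between lesion libraries. Day 0 libraries held 10.7, 8.97 and 11.9 CPM. The contralateral libraries held 10.1, 10.1 and 10.6 CPM at day 7, 12.8, 10.5 and 11.0 at day 14, and 17.0, 11.6 and 9.77 at day 30. The lesion libraries held 4.04, 3.73 and 4.57 CPM at day 7, 4.40, 4.02 and 4.52 at day 14, and 4.61, 3.82 and 3.89 at day 30. All 9 lesion libraries lay in a narrow band below all others. The lesion level was 40.3%, 37.7% and 32.3% of the contralateral level at days 7, 14 and 30. The log2 differences were -1.31 ± 0.16, -1.41 ± 0.16 and -1.63 ± 0.16.

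Mmp9 and Dkk3, whose products are secreted, were lower on the lesion side by a smaller factor. Mmp9 stood at 7.32, 5.50 and 7.14 CPM at day 0. Its contralateral libraries held 6.47, 7.32 and 6.18 CPM at day 7, 8.76, 7.94 and 7.04 at day 14, and 10.2, 6.81 and 7.33 at day 30. The lesion libraries held 5.08, 3.68 and 3.92 CPM at day 7, 4.46, 4.06 and 4.03 at day 14, and 5.15, 5.27 and 4.91 at day 30. The sides did not overlap on any day, and the log2 differences were -0.66 ± 0.16, -0.92 ± 0.15 and -0.67 ± 0.15. Mmp9 is also a neutrophil gene. The summed level of 6 neutrophil markers was at most 4.05 CPM in any library. That library, day 30 contralateral replicate 1, also held the most Mmp9. It held the most Chodl, Prss12, Dkk3, Isl1 and Tbx20 too, and was the highest of its group for 6 of the 8 members. Of the neutrophil markers Ly6g was at 0 in 11 of 21 libraries, Mmp8 in 7 and Retnlg in 5. S100a8, S100a9 and Ngp had reads in all 21. The part of neutrophils in the Mmp9 values was not tested.

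Dkk3, highest of the 8 genes per kilobase at day 0, had day 0 libraries at 120.7, 99.6 and 120.1 CPM. Contralateral libraries held 121, 119 and 123 CPM at day 7, 129, 133 and 126 at day 14, and 140.4, 120.8 and 130.4 at day 30. Lesion libraries held 82.0, 77.8 and 100.4 CPM at day 7, 86.9, 88.5 and 85.7 at day 14, and 91.2, 97.3 and 89.6 at day 30. The lesion side was below the contralateral side without overlap on each day, at 71.8%, 67.3% and 71.0% of its level. The log2 differences were -0.48 ± 0.08, -0.57 ± 0.08 and -0.49 ± 0.08. At day 7 the highest lesion library reached the range of the day 0 libraries.

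**Figure D2:**
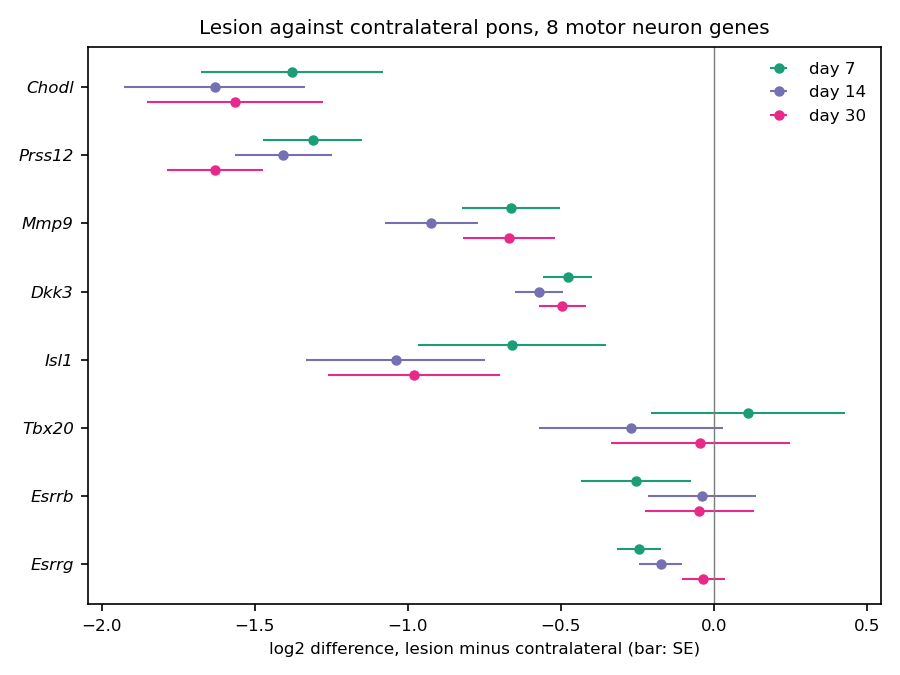
Log2 difference of lesion minus contralateral pons (horizontal axis, bars are SE) for the 8 genes at days 7, 14 and 30, each from 3 against 3 libraries. Chodl and Prss12 lie between -1.63 and -1.31, Dkk3 near -0.50, and Tbx20, Esrrb and Esrrg between -0.27 and 0.11.

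Among the transcription factors, the LIM factor Isl1 was lower on the lesion side. With edgeR its contralateral level was called higher than day 0 at day 30 only, a call lost without contralateral replicate 1. Day 0 libraries held 3.62, 1.83 and 4.28 CPM. Contralateral libraries held 3.13, 5.08 and 4.38 CPM at day 7, 4.79, 5.19 and 6.35 at day 14, and 8.04, 5.46 and 6.11 at day 30. Lesion libraries held 2.08, 1.79 and 3.96 CPM at day 7, 2.94, 2.12 and 2.94 at day 14, and 3.33, 3.23 and 3.40 at day 30. The sides overlapped at day 7 and did not at days 14 and 30. The log2 differences were -0.66 ± 0.31, -1.04 ± 0.29 and -0.98 ± 0.28, and without day 7 lesion replicate 3 the day 7 difference was -1.12. Against day 0 the lesion differences of Isl1 were -0.28 at day 7, -0.28 at day 14 and 0.04 at day 30, and its lesion libraries lay within the day 0 range except day 7 replicate 2.

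Tbx20, a T-box factor, showed no separation of the sides. Its day 0 libraries held 3.12, 1.36 and 3.25 CPM. The lesion libraries held 4.10, 2.89 and 2.80 CPM at day 7, 4.30, 2.31 and 3.42 at day 14, and 4.85, 3.09 and 4.62 at day 30. The contralateral libraries held 2.98, 2.94 and 3.07 CPM at day 7, 4.21, 4.41 and 3.38 at day 14, and 6.02, 3.21 and 3.71 at day 30. The log2 differences between sides were 0.11 ± 0.32, -0.27 ± 0.30 and -0.04 ± 0.29, each smaller than its SE. At these low counts, 57 to 144 reads per library, the 95% interval at day 14 ran from -0.86 to 0.32.

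The nuclear receptors Esrrb and Esrrg differed little between the sides. Esrrb held 16.7, 14.4 and 19.4 CPM at day 0. Its lesion libraries held 13.9, 12.6 and 12.0 CPM at day 7, 16.7, 16.5 and 12.5 at day 14, and 13.9, 14.5 and 12.7 at day 30, against contralateral values of 21.1, 13.1 and 11.8, then 17.0, 15.5 and 14.3, then 15.1, 15.6 and 11.9. The sides overlapped on every day, and the log2 differences were -0.25 ± 0.18, -0.04 ± 0.18 and -0.05 ± 0.18.

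Esrrg held 79.4, 68.7 and 73.1 CPM at day 0. Its contralateral libraries held 91.0, 88.2 and 90.5 CPM at day 7, 91.6, 96.7 and 89.8 at day 14, and 82.1, 83.8 and 89.5 at day 30. Its lesion libraries held 82.0, 67.5 and 78.2 CPM at day 7, 90.3, 81.5 and 74.9 at day 14, and 81.8, 81.8 and 85.8 at day 30. The sides did not overlap at day 7 and did at days 14 and 30. The log2 differences were -0.24 ± 0.07, -0.17 ± 0.07 and -0.04 ± 0.07.

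Read over the 8 genes, the lesion libraries lay wholly below the contralateral ones for 5 members on each day, against 5.26%, 10.5% and 8.28% of all genes tested at days 7, 14 and 30. The fifth beside Chodl, Mmp9, Prss12 and Dkk3 was Esrrg at day 7 and Isl1 at days 14 and 30. An edgeR quasi-likelihood test called those 4 genes lower on each day, against 0.0942%, 1.31% and 0.121% of all genes. The members were chosen on this contrast, so these counts are not a result about them. Their median log2 difference was -0.57, -0.75 and -0.58 at days 7, 14 and 30, where that of all genes tested was -0.01, 0 and 0.002. Microglial markers moved with the side: 6 of them summed to between 231 and 290 CPM in lesion libraries and to between 163 and 198 CPM in the others. The part of this shift in the members' values was not tested.

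The contralateral pons against day 0 was a comparison the choice of members did not use directly, although its contralateral libraries were in the contrast that chose them. Choosing genes lower in the lesion than in the contralateral pons can favour high contralateral values. The members' p-values against day 0 are therefore not independent of the choice. This comparison sets the uncut side of operated mice against the left pons of unoperated, younger mice. Day 0 libraries were also read in another lane or run. Their summed counts were 35874913 to 41448945, against 17358868 to 29827291 in operated libraries. Operation, age, lane or run, and depth cannot be told apart here. The 3 comparisons share the day 0 libraries. Esrrg was higher on the contralateral side at each time. The log2 differences were 0.29 ± 0.07 at day 7 (edgeR adjusted p = 0.0068), 0.33 ± 0.07 at day 14 (adjusted p = 0.0014) and 0.21 ± 0.07 at day 30 (adjusted p = 0.041). All 9 contralateral libraries lay above the 3 day 0 libraries. The calls at days 7 and 14 held without any single library. The day 30 call did not: its adjusted p was 0.19 without day 0 replicate 2, 0.11 without day 0 replicate 3, and 0.054, 0.061 and 0.16 without day 30 contralateral replicates 1, 2 and 3. Markers of other cell types moved with this comparison. A sum of 10 pan-neuronal markers was 8927 to 9241 CPM in day 0 libraries and 9782 to 10960 CPM in the 9 contralateral ones, with 2, 3 and 3 of the 10 called higher and 0 lower at days 7, 14 and 30. The sum of 4 endothelial markers was 226.9 to 250.9 CPM at day 0 and 161 to 203 CPM on the contralateral side, with 2, 2 and 3 called lower. That of 5 oligodendrocyte markers was 29910 to 31830 CPM at day 0 and 22930 to 29600 CPM on the contralateral side, with 2, 3 and 2 called lower. No marker of these 3 lists was at 0 in any library. Their part in the contralateral differences of Esrrg and of the other members was not tested. Against day 0 the lesion side of Esrrg stood at 0.04, 0.16 and 0.17 on the log2 scale.

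Isl1 was higher in the contralateral pons by 1.02 ± 0.27 at day 30 (edgeR adjusted p = 0.013), with 3 of 3 libraries above all day 0 libraries. At day 14 the difference was 0.76 (adjusted p = 0.069) and at day 7 it was 0.38 (adjusted p = 0.47), and neither passed the test. Without day 30 contralateral replicate 1 the day 30 difference was 0.84 with an adjusted p of 0.074, and in a fit of only those groups the adjusted p was 0.068. At day 14 the adjusted p was 0.033 with DESeq2, 0.032 with limma-voom and 0.026 without day 0 replicate 3. Without day 0 replicate 2, the lowest of its group for Isl1, the differences were 0.09, 0.47 and 0.73 at days 7, 14 and 30.

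The other members did not pass this test at any time. Chodl differed from day 0 by 0.34, 0.42 and 0.71 at days 7, 14 and 30 (adjusted p = 0.52, 0.34 and 0.093 with edgeR). Tbx20 differed by 0.23, 0.64 and 0.76 (adjusted p = 0.73, 0.16 and 0.087), and Dkk3 by 0.09, 0.19 and 0.20 (adjusted p = 0.53, 0.10 and 0.074). Mmp9, Prss12 and Esrrb lay between -0.25 and 0.29 at all times. Members called were 1 of 8 at day 7, 1 at day 14 and 2 at day 30, against 10.5%, 15.8% and 16.1% of all genes, so these shares are near the background. Single libraries or settings changed calls of other members too: the adjusted p of Prss12 at day 30 was 0.033 without day 30 contralateral replicate 3, that of Esrrb at day 7 was 0.046 without day 7 contralateral replicate 1, and that of Chodl at day 14 was 0.0062 in a fit of only those groups. For Dkk3 at day 30 it was 0.049 without day 0 replicate 1 and 0.037 without day 30 contralateral replicate 2.

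**Figure D3:**
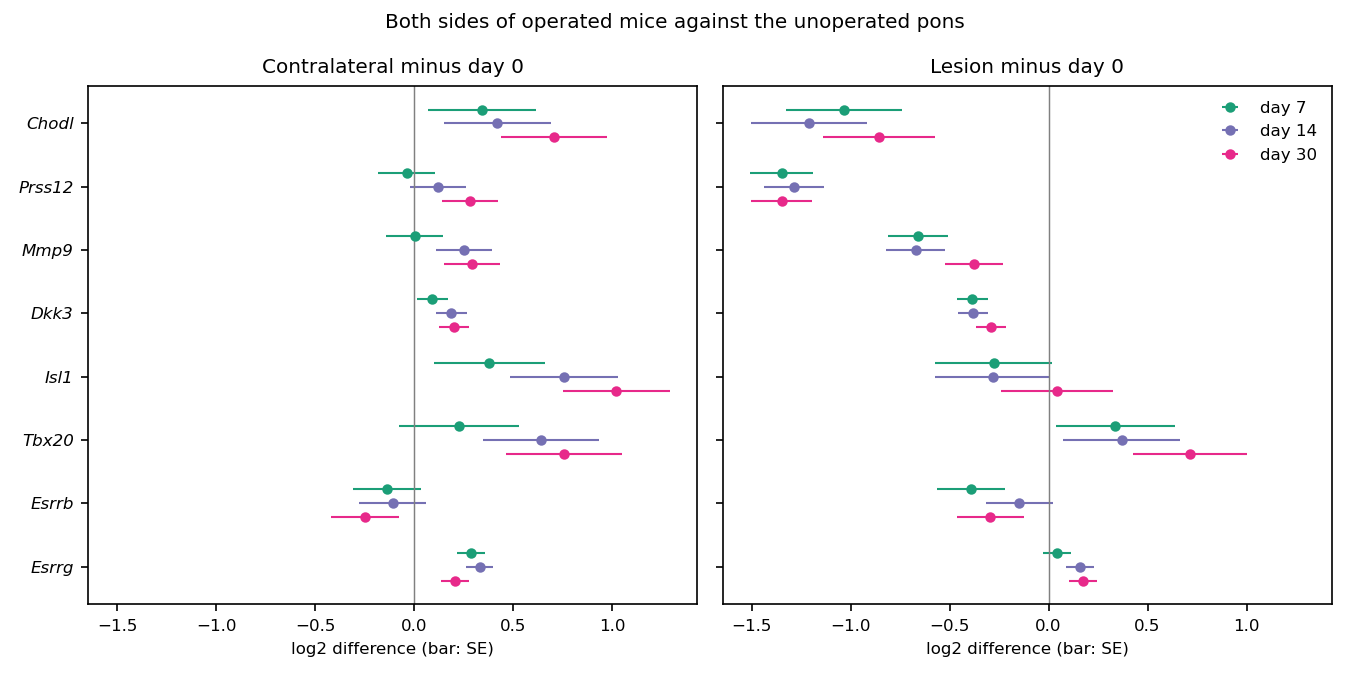
Log2 difference of the contralateral (left panel) and lesion (right panel) pons minus the day 0 pons (horizontal axes, bars are SE) for the 8 genes at days 7, 14 and 30. Isl1 lies at 0.38, 0.76 and 1.02 on the contralateral side and at -0.28, -0.28 and 0.04 on the lesion side, while Prss12 lies within -0.04 to 0.28 and -1.35 to -1.29.

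Measured against day 0, the lesion side of Chodl, Prss12, Mmp9 and Dkk3 was lower too, which is again a description. The log2 differences at days 7, 14 and 30 were -1.03, -1.21 and -0.86 for Chodl, -1.35, -1.29 and -1.35 for Prss12, -0.66, -0.67 and -0.38 for Mmp9, and -0.39, -0.38 and -0.29 for Dkk3. Esrrb differed from day 0 by -0.391, -0.147 and -0.295 on the lesion side, and by -0.137, -0.108 and -0.247 on the contralateral side. Tbx20 stood above day 0 on the lesion side, by 0.34, 0.37 and 0.72, and by 0.23, 0.64 and 0.76 on the contralateral side. These comparisons share the day 0 libraries, and age, lane or run, and depth differ in them as in the contralateral ones.

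Between contralateral groups of different days, edgeR called 0 of 8 members in each of 3 comparisons, against 0.0224%, 0.139% and 0.408% of all genes for day 14 against 7, day 30 against 7 and day 30 against 14. DESeq2 also called 0 of 8 in each. At an unadjusted p under 0.05 there were 0, 2 and 0 members, the 2 being Prss12 and Isl1 at day 30 against day 7.

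Among other genes of the motor neuron, those that make acetylcholine, take up choline and load acetylcholine into vesicles were called lower on the lesion side at day 14. This was in the main fit, which pairs no libraries and called 1 of these genes, Slc18a3, at day 30 too. In a fit with a block for replicate number, others of them were called at days 7 and 30, as given below. The lists were chosen with earlier results of these data known, so calls in them may reflect that choice. They were those of motor neuron transcription factors, cholinergic and axon genes, subtype genes, and relatives and partners of the 8 members. They held 65 genes in all with 62 tested. Of these, edgeR called 2 lower and 2 higher at day 7, 8 lower and 4 higher at day 14, and 3 lower and 3 higher at day 30. Over all genes, 1.56% were called higher at day 7, 2.58% at day 14 and 1.04% at day 30. Those called lower were 0.0942%, 1.31% and 0.121%. These shares also stand beside the counts of each list below. The lists' median log2 difference was -0.05, -0.07 and 0.02 on the 3 days, near that of all genes.

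The cholinergic and axon list had 12 tested members, of which 1, 6 and 2 were called at days 7, 14 and 30. Chat, the enzyme that makes acetylcholine, stood at 12.8 ± 2.53 CPM (SD, n = 3) in the lesion pons and 37.3 ± 2.23 in the contralateral pons at day 14. Its log2 difference was -1.54 ± 0.22 (SE; edgeR adjusted p = 0.00062). At days 7 and 30 Chat differed by -0.79 (adjusted p = 0.13) and -0.83 (adjusted p = 0.11). With a block for replicate number these adjusted p-values were 6e-05 and 6.7e-05, and the day 7 value was 0.0011 without lesion replicate 3. Slc5a7, the choline transporter, fell by 1.66 at day 14 (adjusted p = 0.0048) and differed by -1.17 at day 7 (adjusted p = 0.076) and by -0.72 at day 30 (adjusted p = 0.53). With the block the day 7 adjusted p of Slc5a7 was 0.030, and without day 7 lesion replicate 3 it was 0.0063. Slc18a3, which loads acetylcholine into vesicles and lies within the Chat locus, fell by 0.91 at day 14 (adjusted p = 0.016) and by 0.87 at day 30 (adjusted p = 0.037). The day 14 call of Slc18a3 was lost without lesion replicate 2 (adjusted p = 0.10) or contralateral replicate 1 (adjusted p = 0.069). Its day 30 call was lost without any 1 of lesion replicates 1, 2 and 3 (adjusted p = 0.093, 0.18 and 0.13) or contralateral replicate 1 (adjusted p = 0.13). At day 7 Slc18a3 differed by -0.59, with an adjusted p of 0.26, or of 0.031 without lesion replicate 3. In day 14 lesion replicate 2 mitochondrial genes took 2.81% of counts, against 4.48% and 4.40% in replicates 1 and 3. Its 8 choroid plexus markers summed to 398.6 CPM, against 114.1 and 36.1. Those of day 14 contralateral replicate 3 summed to 979.3 CPM, against 140.1 and 79.7 in replicates 1 and 2. The part of this in the day 14 calls here and below was not tested.

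Smaller differences were called in the same list for genes of the synapse and the axon. Ache, which breaks down acetylcholine, fell by 0.22 at day 14 (edgeR adjusted p = 0.017) and by 0.23 at day 30 (adjusted p = 0.023). Nefl, the light neurofilament, fell by 0.22 at day 7 (adjusted p = 0.042) and by 0.20 at day 14 (adjusted p = 0.039). With the block the day 30 difference of Nefl, -0.21, had an adjusted p of 0.018, against 0.057 without it. Prph, a neurofilament of neurons with peripheral axons, rose by 0.83 at day 14 (adjusted p = 0.021) and stood at -0.09 at day 30. Calls of these genes were lost without single libraries. At day 14 Ache had an adjusted p of 0.12 without contralateral replicate 1. At day 30 Ache had 0.062, 0.065 and 0.17 without lesion replicates 1, 2 and 3, and 0.14 and 0.13 without contralateral replicates 1 and 3. At day 7 the adjusted p of Nefl was 0.15, 0.16 and 0.065 without lesion replicates 1, 2 and 3, and 0.34 and 0.087 without contralateral replicates 2 and 3. At day 14 it lay between 0.055 and 0.13 without any 1 of the 6 libraries. Prph at day 14 had 0.13 and 0.052 without lesion replicates 2 and 3, and 0.096 and 0.077 without contralateral replicates 2 and 3.

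The subtype genes moved in both directions. Vipr2, a receptor of the peptides VIP and PACAP, had the largest fall of the lists, from 9.61 ± 1.54 to 1.63 ± 0.710 CPM at day 14 (SD, n = 3). Its log2 differences were -2.14, -2.60 and -2.01 at days 7, 14 and 30 (edgeR adjusted p = 2.4e-05, 8.9e-07 and 3.3e-05). Kcnq5, a potassium channel subunit, fell by 0.39 at day 14 (adjusted p = 0.018), a call lost without lesion replicate 2 (adjusted p = 0.17) or contralateral replicates 1 (0.060) or 3 (0.083). At days 7 and 30 Kcnq5 differed by -0.09 and 0.15 (adjusted p = 0.99 and 0.78). Gfra1, the receptor subunit that binds GDNF, rose by 1.47 at day 7 (adjusted p = 8.6e-08), 1.42 at day 14 (adjusted p = 8.5e-08) and 0.53 at day 30 (adjusted p = 0.017). With the block the day 30 adjusted p of Gfra1 was 0.12. It was 0.073 and 0.11 without lesion replicates 2 and 3, and 0.087 and 0.083 without contralateral replicates 2 and 3. Calca, which encodes the peptide CGRP, rose by 1.12 at day 30 (adjusted p = 0.029), and stood at 0.71 at day 7 (adjusted p = 0.29, or 0.041 with the block) and 0.42 at day 14 (adjusted p = 0.37). The day 30 call of Calca was lost without lesion replicates 1 (0.091) or 3 (0.092) and without contralateral replicates 2 (0.15) or 3 (0.16).

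Of 19 tested motor neuron transcription factors, 0 were called at day 7, 2 at day 14 and 0 at day 30 with edgeR. Lhx4, a LIM factor of the same class as Isl1, fell by 0.85 ± 0.13 at day 14 (adjusted p = 7.7e-05) and differed by -0.48 at day 7 (adjusted p = 0.060, or 0.037 without contralateral replicate 1) and -0.43 at day 30 (adjusted p = 0.11, or 0.047 without lesion replicate 2). Tbx3, a T-box factor, rose by 0.69 at day 14 (adjusted p = 0.010), lost without lesion replicate 2 (0.060) or contralateral replicate 1 (0.069). At day 7 Tbx3 differed by 0.46, with an adjusted p of 0.27, or of 0.050 with the block. Among relatives and partners of the members 1 of 15 was called on each day, Timp1, an inhibitor of matrix metalloproteinases such as Mmp9. Timp1 rose by 2.72, 1.59 and 2.15 at days 7, 14 and 30 (adjusted p = 1e-07, 0.00040 and 1.3e-05), with group means from 0.780 to 5.16 CPM. Esrra, the third estrogen-related receptor, differed by -0.10, 0.06 and -0.10 (adjusted p = 0.89, 0.67 and 0.75).

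**Figure D4:**
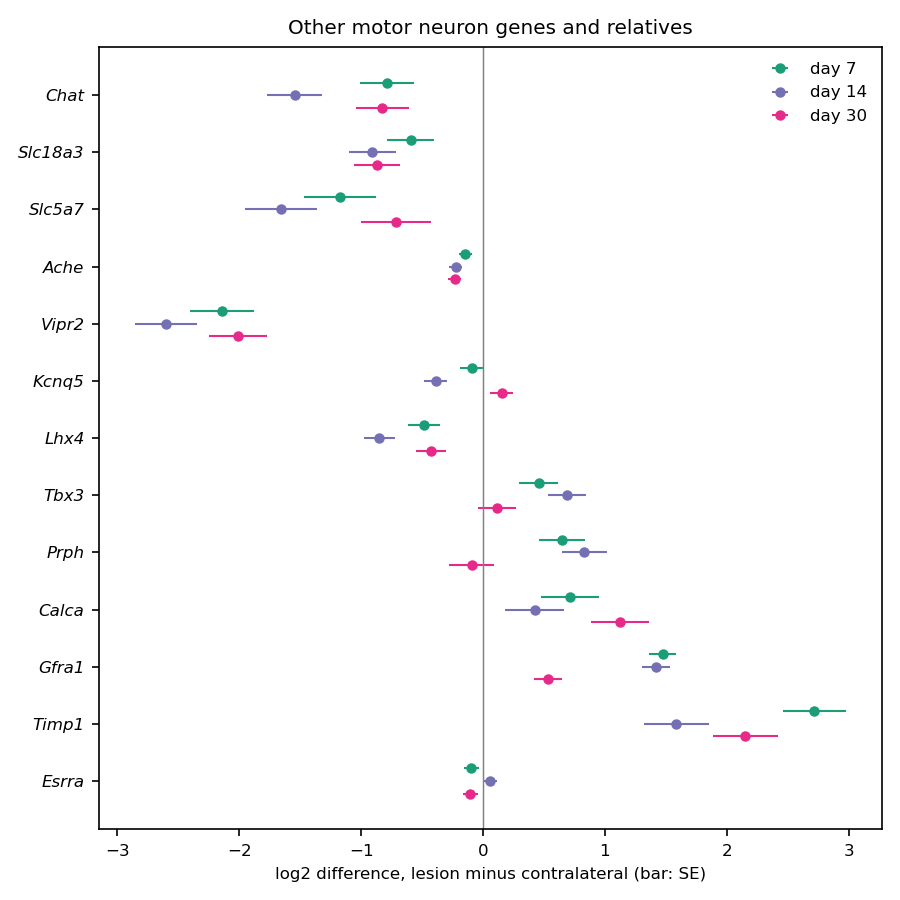
Log2 difference of lesion minus contralateral pons (horizontal axis, bars are SE) for 13 other motor neuron genes and relatives of the members at days 7, 14 and 30. Vipr2 lies between -2.60 and -2.01 and Timp1 between 1.59 and 2.72, while Esrra lies between -0.10 and 0.06.

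The 8 members did not share 1 profile over the libraries. Each member's log2 CPM was correlated with the mean standardised profile of the other members over the 21 libraries, as a description without a test, since libraries share groups. Pearson's r was 0.915 for Mmp9, 0.910 for Dkk3, 0.843 for Chodl, and 0.822 for both Prss12 and Isl1. It was 0.537 for Esrrg, 0.305 for Tbx20 and 0.215 for Esrrb. The genes that varied most like the members' mean, of 13557 ranked, were Stk32a (r = 0.921), Fgf1 (0.918), Pdgfd (0.914), Tns1 (0.913), Lcp1 (0.887), Vipr2 (0.883), Slc5a7 (0.880) and Nell1 (0.877). These 8 include a growth factor in Fgf1 and another in Pdgfd.

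For single members the closest genes by Pearson's r differed. Kcnj14, an inward rectifier potassium channel, was closest to Chodl (r = 0.965), Prss12 (0.973) and Dkk3 (0.954). Next came Grin3b, a subunit of NMDA receptors, for Chodl (0.950) and Dkk3 (0.947), and Htr3a, a serotonin receptor subunit, for Prss12 (0.957). Mmp9 was closest to Scx (0.915) and Nell1 (0.914), and Isl1 to Pdgfd (0.951) and Stk32a (0.902). Tbx20 was closest to Lrrc8c (0.859) and Arap2 (0.849), Esrrb to Inpp5j (0.819) and Doc2g (0.805), and Esrrg to Kcnab1 (0.871) and Zfp157 (0.847). With Spearman's rho in place of Pearson's r, 0 of the 2 nearest genes were shared for Prss12, Esrrb and Esrrg, 1 for Chodl (Kcnj14), Mmp9 (Scx), Isl1 (Pdgfd) and Tbx20 (Lrrc8c), and 2 for Dkk3. By rho the nearest to Prss12 were Grin3b (0.904) and Tns1 (0.878).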

How the data were processed

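The members and gene lists were chosen with earlier results of these data known. Bases were called with CASAVA 1.8.2, per the submitters' processing notes. Reads of 50 bases from a stranded kit with 300 ng of RNA were aligned with Rsubread to GRCm38.p4 with GENCODE M7, and the authors counted them per gene symbol with featureCounts, per the labels and the design text. The deposited table holds raw counts. The authors' deposited log2 CPM (voom) matrix, which leaves out the genes with the lowest summed counts (up to the 32nd percentile), was used in 1 alternative, and for 22269 matched genes it was reproduced to within 5e-11. Summed counts ran from 35874913 to 41448945 at day 0 and from 17358868 to 29827291 in operated libraries. Mitochondrial genes took 2.81% to 7.29%.

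Of 32815 genes with a count, the 22294 with a summed count of at least 30 were tested with edgeR 4.0.16 in R 4.3.3 (TMM factors, quasi-likelihood F-test with robust priors, all 21 libraries fitted together by group), two-sided, with Benjamini-Hochberg adjustment over all genes and calls at an adjusted p under 0.05. The scripts were tested on simulated data. With 3 libraries per group the smallest p of an exact test is 0.1. CPM uses TMM factors. Alternatives were DESeq2 1.42.0, limma 3.58.1 (voom, and on the deposited matrix), RLE factors, 2 filters, fits of only the groups compared, a block for replicate number, each library left out, and a log2 threshold of 1.7. Same-numbered lesion and contralateral libraries correlated, after group means were removed, at 0.17 to 0.27 at day 7, 0 to 0.27 at day 14 and 0.19 to 0.21 at day 30. Libraries of different number correlated at -0.2 to -0.01 at day 7, -0.24 to 0.1 at day 14 and -0.15 to -0.04 at day 30. The numbers were therefore taken to pair libraries at days 7 and 30, although the labels do not say so. The main fit did not use this pairing, so its p-values at those days are those of unpaired libraries. The block for replicate number did use it.

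Named genes were the 8 members, at most 4 called genes per list and comparison with the smallest adjusted p, Chat, Slc18a3, Slc5a7, Esrra, Vipr2 and Calca, and the genes most like the members (mean of at least 1 CPM, predicted genes left out). Prph and Nefl at day 14 are named beyond that rule, after their values were seen, and 1 gene of the rule is not reported here. Positions are from GENCODE vM21 (GRCm38), where 150 of 150 symbols looked up were found. Exons of 12 overlap another gene of their own strand, and exons of 31 overlap a gene of the opposite strand.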

Additional observations from a re-analysis of the deposited data

Results flagged for a closer look

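The lesion difference of Gfra1, the GDNF-binding receptor subunit, changed between days, by a test of the difference itself. The log2 difference of day 30 minus day 7 was -0.94 ± 0.16 (edgeR adjusted p = 0.040), and that of day 30 minus day 14 was -0.89 ± 0.16 (adjusted p = 0.030). These comparisons share the day 30 libraries, and the list that holds Gfra1 was chosen with earlier results of these data known.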

How the results depend on the processing

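The members' lesion differences of Chodl, Mmp9, Prss12, Dkk3 and Isl1 kept their sign under every alternative run for them. The alternatives refit the same counts that the choice of members used, so the kept signs are a description only. Esrrg was called in the contralateral pons at days 7 and 14 with each other tool, scaling and filter, with only the groups compared and without each library. The log2 threshold of 1.7 was applied to the lesion comparisons only. The part of depth in the spread was not tested.

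Counts of genes called, lesion against contralateral side, were 368, 866 and 259 at days 7, 14 and 30. With a log2 difference of at least 1.7 they were 68, 102 and 65. In fits of only the groups compared they were 435 at day 14 and 569 at day 30, and the replicate block gave 1898 at day 14. Between contralateral groups (day 14 against 7, 30 against 7, 30 against 14) the main counts of 5, 31 and 91 became 225, 165 and 527 with DESeq2, 3, 19 and 31 with limma-voom, 239, 104 and 374 with no filter, and 307, 140 and 1224 with only the groups compared. With filterByExpr the first was 3. For the change of the lesion effect between days (14 minus 7, 30 minus 7, 30 minus 14) the main counts of 0, 6 and 18 became 1, 28 and 188 with DESeq2, 2, 32 and 331 with no filter, and 1, 19 and 745 with the replicate block. With only the groups compared the last 2 were 20 and 92, and the deposited matrix gave 11 for 30 minus 7.

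Other motor neuron genes and relatives called lower at day 7 (main 2) were 5 with DESeq2, 4 with the deposited matrix, 1 with only the groups compared and 5 with the block. Those called higher (main 2) were 5 with the block. At day 14 those called higher (main 4) were 7 with DESeq2 and 7 with the block. At day 30 those called lower (main 3) were 5 with DESeq2 and 5 with the block, and those called higher (main 3) were 1 with only the groups compared. Members called in the contralateral pons at day 14 against day 0 (main 1) were 2 with DESeq2, limma-voom, no filter and only the groups compared, and at day 30 (main 2) 1 with only the groups compared. The block changed no other call of named list genes at days 7 and 30 than those given beside them.

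With single libraries left out, genes called between sides ranged over 272 to 335, 432 to 1983 and 158 to 218 at days 7, 14 and 30. The extremes at day 14 came without contralateral replicate 2 and without lesion replicate 1. Against day 0 the contralateral counts ranged over 1567 to 2156, 2246 to 3860 and 2469 to 3078. Between contralateral groups they ranged over 0 to 30, 1 to 21 and 0 to 12, and for changes of the lesion effect over 0 to 1, 2 to 7 and 5 to 938. Other motor neuron genes called lower ranged over 1 to 5, 4 to 9 and 1 to 3, and called higher over 2 to 2, 2 to 7 and 1 to 3. Members called in the contralateral pons against day 0 ranged over 1 to 2, 1 to 2 and 0 to 3 at days 7, 14 and 30.

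Signs reversed for values near 0. With single libraries left out, contralateral minus day 0 at day 7 ranged from -0.12 (without day 0 replicate 2) to 0.08 for Mmp9 (main 0, and 0 with no filter), from -0.14 to 0.06 (without day 0 replicate 3) for Prss12, from -0.09 (without day 0 replicate 2) to 0.43 for Tbx20 and from -0.44 to 0.02 (without contralateral replicate 3) for Esrrb. At day 14 Esrrb ranged from -0.21 to 0.01 (without day 0 replicate 3). Mmp9 at day 7 was also -0.07 without contralateral replicate 2. Lesion minus contralateral at day 30 ranged from -0.19 to 0.14 (without contralateral replicate 1) for Prph. Lesion minus contralateral also changed sign for members whose sides overlapped. The range of Tbx20 was -0.08 (without lesion replicate 1) to 0.21 at day 7. At day 30 it was -0.21 to 0.28 (without contralateral replicate 1). The range of Esrrb was -0.41 to 0.04 (without contralateral replicate 1) at day 7. Its ranges were -0.11 to 0.09 (without lesion replicate 3) on day 14, and -0.16 to 0.03 (without contralateral replicate 2) on day 30. For Esrrg the day 30 range was -0.06 to 0.01 (without contralateral replicate 3).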
